A study of Mus musculus with 6 samples.

Results

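The genes described here encode 7 of the proteins that hold the 2 sides of a synapse together: the neurexins Nrxn2 and Nrxn3, the neuroligins Nlgn1, Nlgn2 and Nlgn3, and the leucine-rich repeat transmembrane proteins Lrrtm1 and Lrrtm2. They were chosen by gene name from a table of 35148 genes, and all 7 were among the 20865 genes that passed the filter on low counts. RNA came from the paraventricular nucleus of the hypothalamus (PVH), which regulates appetite, stress hormones and water balance, of Ruvbl2fl/fl mice, in which both copies of Ruvbl2 carry loxP sites. AAV2-GFP, a viral vector for green fluorescent protein alone, had been injected into the nucleus in 3 samples, and AAV2-Cre-GFP, which also supplies Cre recombinase, in the other 3. All 6 samples were taken 8 weeks after injection. The labels give neither the age and sex of the animals, nor the promoter of the vector, nor the share of cells it reached, nor whether a library is 1 animal. The p-values thus rest on variation among these libraries, which may in part be technical. The series description names synaptic plasticity as the question behind the comparison.

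Neurexins sit mainly on the presynaptic terminal and bind partners on the postsynaptic cell across the cleft. Neuroligins and LRRTMs are 2 classes of such partners, and the set of partners at a contact helps to determine whether it matures as a glutamatergic or a GABAergic synapse. Neuroligin 1 and the LRRTMs are known from excitatory synapses, neuroligin 2 from inhibitory synapses, where it recruits the scaffold gephyrin, and neuroligin 3 from both. Each neurexin gene makes long alpha and short beta proteins from separate start sites and many splice forms. The table gives 1 value per gene, which sums over these forms.

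Ruvbl2, whose exons Cre was meant to remove, had no lower level with AAV2-Cre-GFP. It stood at 9.90, 7.36 and 8.72 FPKM (fragments per kilobase of gene, scaled to library size) in AAV2-GFP libraries 1 to 3 and at 9.53, 9.10 and 9.51 FPKM in AAV2-Cre-GFP libraries 1 to 3, with a log2 difference of 0.077 ± 0.11 (SE; edgeR adjusted p = 0.773). The value counts the whole gene and does not separate deleted from kept exons. The libraries are therefore called GFP-labelled and Cre-labelled, and each direction below compares libraries so labelled. Their total counts ran from 41890769 to 54702785. A ribosomal RNA model, CT010467, stood at 2072 to 2219 CPM (counts scaled to library size) in the GFP-labelled and at 7301 to 17633 CPM in the Cre-labelled libraries, and its part in the differences below was not tested. Transcripts of other organs were present in 3 libraries. The summed level of 6 testis genes was 354 CPM in the first GFP-labelled library and at most 2.93 CPM in the other 5, and that of 6 kidney genes was 524 and 554 CPM in Cre-labelled libraries 2 and 3 and at most 43.9 CPM in the other 4. Results are also given without these 3 where that changes a call.

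Several of the 7 genes share their locus with another gene. Nrxn2 (ENSMUSG00000033768) lies on the plus strand at chr19:6418731-6533217, and Nrxn3 (ENSMUSG00000066392) on the plus strand at chr12:88722876-90333443, where it spans 1610568 bases (GRCm38). Nlgn1 (ENSMUSG00000063887) is on the minus strand at chr3:25426215-26332460, Nlgn2 (ENSMUSG00000051790) on the minus strand at chr11:69823122-69837784, and Nlgn3 (ENSMUSG00000031302) on the plus strand at chrX:101299168-101325963. Nlgn2 thus covers 14663 bases and Nlgn1 906246. Lrrtm1 (ENSMUSG00000060780) is on the plus strand at chr6:77242689-77257791, inside Ctnna2, a catenin gene on the opposite strand.

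Promoter sequence is shown for the neuroligins at the top and bottom of the range of levels, and for 1 of the 3 starts that RefSeq lists inside Nrxn3, since the gene value pools them. Each run is the 250 bases before the start in RefSeq's GRCm38.p6 set, 5′ to 3′ on the gene's strand, and capitals mark the GC box GGGCGG or its reverse complement CCGCCC. Of the 7 members, 4 had an entry. The windows are chr11:69837785-69838034 for Nlgn2, chr3:26331910-26332159 for Nlgn1 and chr12:89812233-89812482 for Nrxn3.
Nlgn2: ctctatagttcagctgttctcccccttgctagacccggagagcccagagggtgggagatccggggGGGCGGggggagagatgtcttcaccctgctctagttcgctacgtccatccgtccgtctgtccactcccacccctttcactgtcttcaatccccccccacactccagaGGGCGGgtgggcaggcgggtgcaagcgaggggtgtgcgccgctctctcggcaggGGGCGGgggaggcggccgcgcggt
Nlgn1: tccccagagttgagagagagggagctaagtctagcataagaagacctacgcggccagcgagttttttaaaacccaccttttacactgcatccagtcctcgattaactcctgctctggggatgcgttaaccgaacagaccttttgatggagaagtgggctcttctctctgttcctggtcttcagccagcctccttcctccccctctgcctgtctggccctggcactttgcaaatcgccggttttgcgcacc
Nrxn3: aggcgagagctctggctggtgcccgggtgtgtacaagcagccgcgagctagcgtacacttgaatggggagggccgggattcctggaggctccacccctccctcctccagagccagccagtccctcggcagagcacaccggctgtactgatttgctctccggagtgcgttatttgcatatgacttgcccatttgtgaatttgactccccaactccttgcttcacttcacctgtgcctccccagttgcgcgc
The Nlgn2 window held 3 GC boxes and 18 CpG dinucleotides with a GC content of 67.6%. RefSeq lists 2 starts for Nlgn1. The Nlgn1 window shown held no GC box and 9 CpG at 53.6% GC, the other, chr3:26153987-26154236, no GC box and 5 CpG at 43.6% GC, and the Nrxn3 window none and 12 CpG at 60% GC. Of all 32851 windows of this length, 32.7% held the motif, and the median window had 6 CpG. A match describes the letters only.

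Nlgn2 was the most abundant of the 7 genes and Nlgn1 the least, in both groups. In the GFP-labelled libraries the order of levels per length was Nlgn2 at 48.2 ± 3.66 FPKM (SD, n = 3), Nrxn2 at 32.4 ± 1.86, Nlgn3 at 16.5 ± 0.713, Nrxn3 at 15.7 ± 1.01, Lrrtm1 at 13.8 ± 2.17, Lrrtm2 at 10.5 ± 1.28 and Nlgn1 at 3.85 ± 0.0965 FPKM. The Cre-labelled libraries gave the same order, with 42.9 ± 4.07, 28.6 ± 1.75, 15.4 ± 0.156, 14.9 ± 0.963, 13.5 ± 1.39, 8.49 ± 0.947 and 3.45 ± 0.142 FPKM (SD, n = 3). The ranges of Nlgn3 and Nrxn3 and those of Nrxn3 and Lrrtm1 overlapped in both groups. Within single libraries, Nlgn3 was above Nrxn3 in 3 GFP-labelled and 2 Cre-labelled libraries, and Nrxn3 above Lrrtm1 in 2 of each group. Lrrtm1 and Lrrtm2 overlapped in the GFP-labelled group and were separate in the other, with Lrrtm1 the higher in all 3 libraries of each group. All other neighbours were separate.

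**Figure D1:**
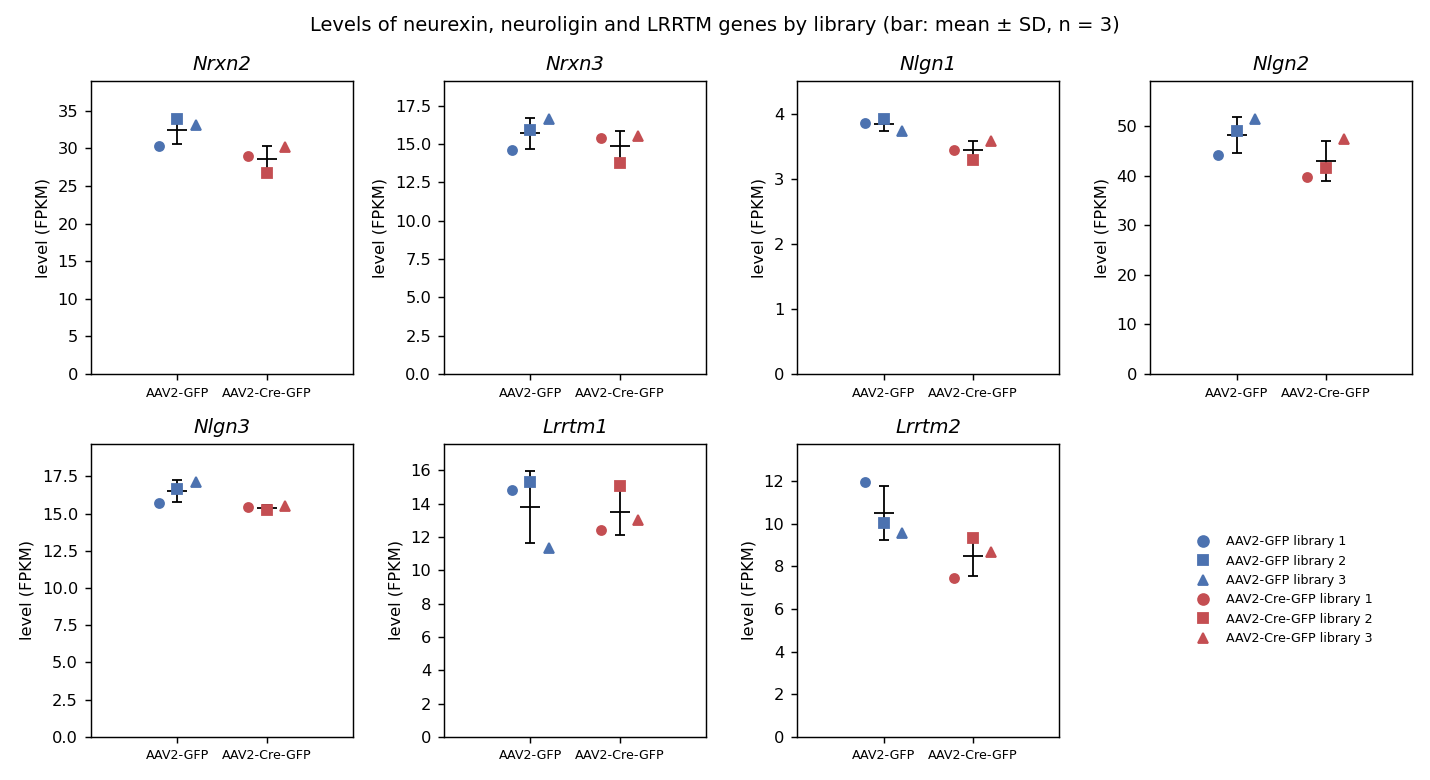
Level of each gene in FPKM (vertical axis, from 0) in the 3 AAV2-GFP and 3 AAV2-Cre-GFP libraries, 1 point per library, with the mean and SD as a bar. Nrxn2, Nlgn1, Nlgn3 and Lrrtm2 have no Cre-labelled point as high as the lowest GFP-labelled one, whereas the points of Nrxn3, Nlgn2 and Lrrtm1 overlap.

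The 7 genes tended to be lower in the Cre-labelled libraries by a small amount, and none passed the test. The log2 difference was below 0 for 7 of 7, where 51% of all tested genes were below 0, and the median of the 7 was -0.19, against -0.0058 over all tested genes. At an adjusted p of 0.05, edgeR's quasi-likelihood test called 0 of 7, where 0.00959% of all genes were called. At an unadjusted p of 0.05 it had 4 of 7 lower, against 9.11% of all genes lower at that level. No gene of the 7 was higher at that level, against 8.11% of all genes. The FPKM ranges of the groups did not overlap, with the Cre-labelled one lower, for 4 of 7, against 8.8% of all genes. Tested genes with a mean FPKM in the range of the 7 leaned more to the lower side than all genes. Of these 8450, 55.4% were below 0, with a median of -0.022. At an unadjusted p of 0.05 by edgeR 1191 of them were lower, and 992 were lower without overlap. The 7 genes come from the same libraries and are not independent of each other. In bulk tissue, fewer cells of a type cannot be told apart from less RNA per cell.

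Nrxn2, a main neurexin gene of neurons, stood at 30.3, 33.9 and 33.1 FPKM in GFP-labelled libraries 1 to 3 and at 29.0, 26.7 and 30.1 FPKM in Cre-labelled libraries 1 to 3. The groups did not overlap, but the nearest libraries, GFP-labelled 1 and Cre-labelled 3, were almost level. The log2 difference was -0.22 ± 0.066 (SE; edgeR adjusted p = 0.167). Its 95% interval, taken for this gene alone, reached from -22.6% to -4.47% on the linear scale. DESeq2 called Nrxn2 (DESeq2 adjusted p = 0.0169), the sole member it called, where it called 8.03% of genes in either direction and 4.91% as lower.

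Slc22a12, a urate transporter gene of the kidney, lies inside Nrxn2 on the opposite strand, with 682 bases shared by exons of both genes. Slc22a12 had 79, 85 and 78 counts in the GFP-labelled libraries and 86, 1076 and 1128 in Cre-labelled libraries 1 to 3, against 19361 to 26445 for Nrxn2. The Cre-labelled libraries with many Slc22a12 counts were those with the high kidney sums. Whether strand was used in counting is not given in the sources used here, so reads of the 2 genes in the shared bases cannot be told apart.

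Nrxn3, the other neurexin, stood at 14.6, 15.9 and 16.6 FPKM with GFP and at 15.4, 13.8 and 15.5 FPKM with Cre. The groups overlapped, since GFP-labelled library 1 lay below 2 of the Cre-labelled libraries. It differed by a log2 of -0.11 ± 0.069 (SE; edgeR adjusted p = 0.442), with an interval from -17.3% to 3.11%.

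Nlgn1, the neuroligin of excitatory synapses, stood at 3.88, 3.93 and 3.74 FPKM with GFP and at 3.46, 3.30 and 3.59 FPKM with Cre. The groups did not overlap and the spread within each was small. Its log2 difference was -0.19 ± 0.060 (SE; edgeR adjusted p = 0.173; interval -20.6% to -3.81%). The antisense gene A830092H15Rik covers 9.16% of its exon bases and had 11 to 40 counts per library, against 2250 to 3062 for Nlgn1.

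Nlgn2, the neuroligin of inhibitory synapses, stood at 44.2, 49.1 and 51.3 FPKM with GFP and at 39.6, 41.6 and 47.4 FPKM with Cre. Cre-labelled library 3 lay above GFP-labelled library 1, so the groups overlapped. In log2 it differed by -0.20 ± 0.089 (SE; edgeR adjusted p = 0.29). The sizes for Nlgn1 and Nlgn2 were close, but the spread of Nlgn2 was wider.

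Nlgn3, found at both kinds of synapse and also made by glia, stood at 15.7, 16.7 and 17.1 FPKM with GFP and at 15.4, 15.2 and 15.5 FPKM with Cre. The Cre-labelled libraries were nearly identical to each other and all lay just below the lowest GFP-labelled one. Its log2 difference was -0.14 ± 0.054 (SE; edgeR adjusted p = 0.25; interval -16.6% to -0.977%). A second gene model on the same strand, Gm21986, shares 41.2% of the Nlgn3 exon bases, so reads there could be assigned to either. It held 43 to 153 counts per library, against 6939 to 9153 for Nlgn3.

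Lrrtm2 (ENSMUSG00000071862), an excitatory postsynaptic ligand of neurexins, lies on the minus strand of chromosome 18 inside the catenin gene Ctnna1, which is on the opposite strand. It had the largest difference of the 7 genes. It stood at 11.97, 10.03 and 9.55 FPKM with GFP and at 7.46, 9.33 and 8.68 FPKM with Cre. GFP-labelled library 1 was the highest and Cre-labelled library 1 the lowest, and the groups did not overlap. The log2 difference was -0.34 ± 0.12 (SE; edgeR adjusted p = 0.196; interval -34.6% to -5.15%).

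The same 2 libraries were also the extremes of the thalamic marker list (Tcf7l2, Calb2, Lef1, Prkcd and Rora), whose summed level was 196, 182 and 166 FPKM in GFP-labelled libraries 1 to 3 and 112, 175 and 140 FPKM in Cre-labelled libraries 1 to 3. None of these 5 genes was at 0 in a library. Calb2 made up most of each sum, at 163, 160 and 151 FPKM with GFP and 101, 152 and 122 FPKM with Cre. Tcf7l2, Lef1 and Rora, like Calb2, were also highest in GFP-labelled library 1 and lowest in Cre-labelled library 1. Prkcd was lowest in GFP-labelled library 3, at 3.32 FPKM. Thalamus adjoins the dissected region, and its part in the Lrrtm2 values was not tested. Ctnna1 differed in the other direction, with 12.06, 12.77 and 12.002 FPKM against 13.9, 13.9 and 14.9 FPKM (log2 difference 0.18; edgeR adjusted p = 0.189), and the 2 share 95 exon bases.

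Lrrtm1, its relative, differed least. It stood at 14.8, 15.3 and 11.3 FPKM with GFP and at 12.4, 15.1 and 13.0 FPKM with Cre, so both the highest and the lowest library were GFP-labelled. The log2 difference was -0.069 ± 0.13 (SE; edgeR adjusted p = 0.834), with an interval from -22.5% to 17.4%. It turned to 0.0084 without GFP-labelled library 2 and to 0.0090 without Cre-labelled library 1. Ctnna2 shares no exon bases with it.

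**Figure D2:**
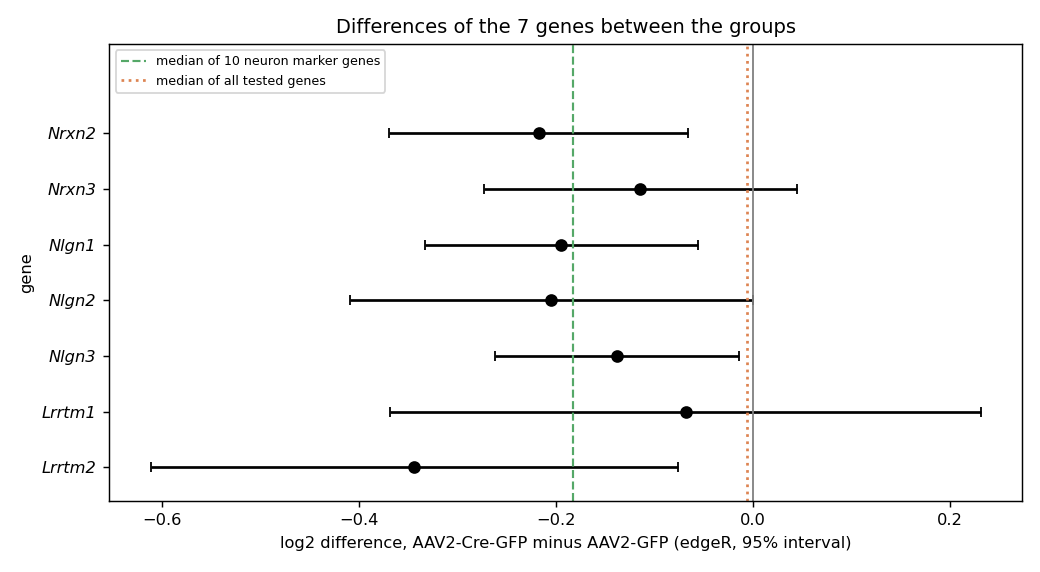
Log2 difference of each gene (horizontal axis, Cre-labelled minus GFP-labelled, edgeR) with its 95% interval. The points run from -0.34 (Lrrtm2) to -0.069 (Lrrtm1), on both sides of the dashed median of the neuron markers at -0.18; the dotted line is the median of all tested genes.

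Without the 3 libraries that hold transcripts of other organs, which leaves 2 GFP-labelled libraries against Cre-labelled library 1, 3 members passed as lower, where 3.57% of all genes did. These were Nlgn2 at a log2 difference of -0.40 (edgeR adjusted p = 0.00595), Lrrtm2 at -0.45 (edgeR adjusted p = 0.0163) and Nrxn2 at -0.26 (edgeR adjusted p = 0.0337). The lone Cre-labelled library is assumed to vary like the GFP-labelled ones. It is also the library with the most counts on CT010467 and the least thalamic and neuronal marker signal.

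Neuron markers tended to be lower in the Cre-labelled libraries, as the 7 genes did, but the order of single libraries differed. GFP-labelled library 1 had the highest neuron marker sum, at 866 FPKM. Nrxn2, Nrxn3, Nlgn2 and Nlgn3 had their lowest GFP-labelled value there, Lrrtm2 its highest, and Nlgn1 and Lrrtm1 lay between. edgeR called 0 of 10, where it called 0.00959% of all genes. DESeq2 called 3 of 10 as lower, namely Rbfox3, Map2 and Uchl1, where it called 4.91% of all genes as lower. The summed level of 10 neuron marker genes was 806 to 866 FPKM in the GFP-labelled and 672 to 756 FPKM in the Cre-labelled libraries, without overlap, and 10 of 10 had a negative log2 difference (median -0.18). Taken singly, 5 of the 10 did not overlap in FPKM, whereas Tubb3, Snap25, Stmn2, Nefl and Nefm did. Uchl1, the most abundant of the 10, stood at 236 ± 23.4 against 174 ± 14.1 FPKM (SD, n = 3) and weighs heavily in the sum. Ependymal markers were on the other side, at 55.4 to 62.4 against 75.5 to 107 FPKM for 5 genes. DESeq2 called 3 of these 5 higher, where it called 8.03% of all genes in either direction. The sum of 9 astrocyte markers was also on that side, at 606 to 626 against 637 to 702 FPKM. Of the 9, 7 were higher and 2 lower. S100b differed by 0.46 in log2 without overlap (edgeR adjusted p = 0.0705, DESeq2 adjusted p = 5.7e-06). Gja1 differed by 0.24 without overlap (edgeR adjusted p = 0.186, DESeq2 adjusted p = 0.0276). In the other direction, Slc1a2, a glutamate transporter, differed by -0.21 in log2 without overlap (edgeR adjusted p = 0.157, DESeq2 adjusted p = 0.00437). The summed glutamatergic and GABAergic markers (Slc17a6, Slc32a1, Gad1 and Gad2) overlapped, at 232 to 253 against 217 to 256 FPKM. Slc17a6, the glutamatergic one, stood at 36.9, 35.4 and 30.9 FPKM with GFP and at 19.6, 35.3 and 24.7 FPKM with Cre. Its log2 difference was -0.41 with overlapping groups (edgeR adjusted p = 0.346). The GABAergic Slc32a1, Gad1 and Gad2 differed by -0.062, 0.0026 and -0.050, also with overlap. Markers of PVH neurons (Sim1, Otp, Oxt, Avp, Crh and Trh) were detected in every library, and 6 of 6 had a negative log2 difference, with a median of -0.76 against -0.19 for the 7 genes. Their sum varied widely within each group and overlapped, at 299, 829 and 878 FPKM with GFP and 179, 242 and 637 FPKM with Cre. Oxt, for 1, stood at 184, 568 and 587 FPKM with GFP and at 56.2, 137 and 428 FPKM with Cre. Of the 6 genes, 1 did not overlap, namely Crh. Crh, which encodes corticotropin-releasing hormone, stood at 6.07, 7.53 and 9.10 FPKM with GFP and at 4.69, 3.55 and 4.56 FPKM with Cre, without overlap (edgeR adjusted p = 0.104, DESeq2 adjusted p = 0.00378). Otp, a transcription factor of these neurons, differed by a log2 of -0.64 with overlapping groups (edgeR adjusted p = 0.17, DESeq2 adjusted p = 0.00619). edgeR called 0 of the 6, where it called 0.00959% of all genes. No marker of these lists was at 0 in a library. The part of cell composition in the differences of the 7 genes was not tested.

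Taken relative to the neuron markers of the same library, the 7 genes did not separate the groups. The mean log2 CPM of the 10 markers differed by -0.23 between groups. After it was subtracted, the difference of the member was 0.016 for Nrxn2, 0.12 for Nrxn3, 0.038 for Nlgn1, 0.027 for Nlgn2, 0.097 for Nlgn3, 0.17 for Lrrtm1 and -0.11 for Lrrtm2. The groups overlapped for each of the 7. What was left was small for Nrxn2, Nlgn1 and Nlgn2 and larger for Lrrtm1, Nrxn3 and Lrrtm2, and 6 of 7 were above 0. That count depends on the use of the marker mean, since the median difference of the markers was nearer 0, at -0.18. The log2 differences of Nrxn2 (-0.22), Nlgn1 (-0.19), Nlgn2 (-0.20) and Lrrtm2 (-0.34) were below that median, and those of Nrxn3, Nlgn3 and Lrrtm1 above it. These values are a description with no test.

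**Figure D3:**
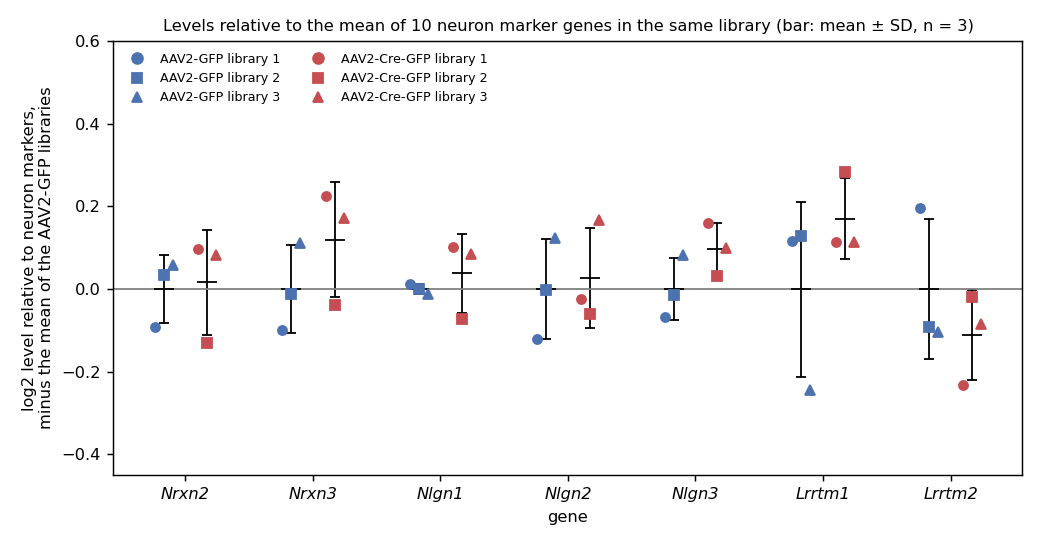
Log2 level of each gene relative to the mean of 10 neuron marker genes in the same library (vertical axis), minus the mean of the GFP-labelled libraries, with the mean and SD of 3 libraries as a bar. For each gene the GFP-labelled and Cre-labelled points overlap, and the widest spread is that of Lrrtm1.

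Ratios within a family do not depend on how a library is scaled. Nlgn2 made up 70.3 ± 0.932% of the summed neuroligin FPKM in the GFP-labelled and 69.4 ± 1.79% in the Cre-labelled libraries (SD, n = 3). Nlgn3 made up 24.1 ± 0.494% and 25.0 ± 1.55%, and Nlgn1 5.63 ± 0.449% and 5.60 ± 0.273%. The log2 ratio of Nlgn1 to Nlgn2 differed by 0.011 between groups, an amount below the spread between libraries (two-sided exact permutation p = 1). The ratio of the excitatory to the inhibitory neuroligin was thus level within its spread, between 0.0729 and 0.0877 in the 6 libraries.

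The log2 ratio of Nrxn3 to Nrxn2 was -1.05, -1.09 and -0.99 with GFP and -0.92, -0.95 and -0.96 with Cre. The groups did not overlap, with Nrxn3 at 0.469 to 0.502 of the Nrxn2 level in the first and 0.516 to 0.529 in the second. The difference was 0.10 (two-sided exact permutation p = 0.1, the smallest that 3 libraries against 3 allow; 0.5 after adjustment over the 5 pairs compared). Lrrtm2 to Lrrtm1 differed by -0.28, from -0.39 ± 0.19 to -0.67 ± 0.076 (SD, n = 3; two-sided exact permutation p = 0.2), and GFP-labelled library 2 lay within the Cre-labelled range. The remaining ratios, Nlgn3 to Nlgn2 and Nlgn1 to Nlgn3, differed by 0.070 and -0.058 (two-sided exact permutation p = 0.5 and 0.4).

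**Figure D4:**
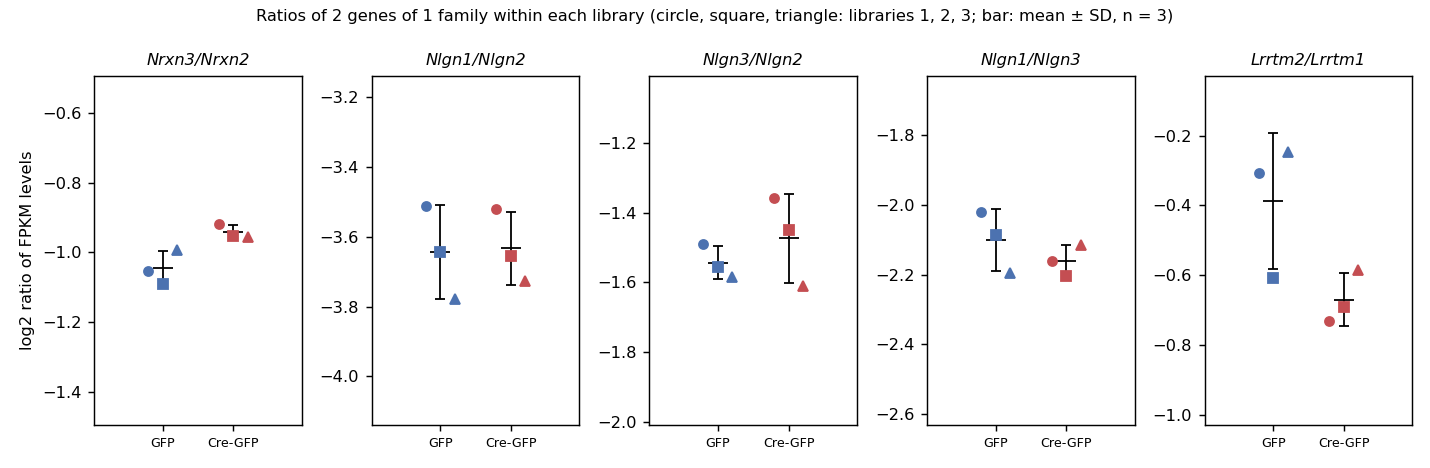
Log2 ratio of the FPKM levels of 2 genes of a family in each library (vertical axis, each panel spanning 1 log2 unit), with the mean and SD of 3 libraries as a bar. Nrxn3/Nrxn2 is the pair whose groups do not overlap, and Nlgn1/Nlgn2 has nearly the same mean in both.

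Likeness of profiles across the 6 libraries was measured after log2 CPM was centred for each gene, as the root-mean-square distance between 2 genes. The 10 pairs among Nrxn2, Nrxn3, Nlgn1, Nlgn2 and Nlgn3 were 0.051 to 0.099 apart, and the 11 pairs with an LRRTM 0.163 to 0.236, Lrrtm1 and Lrrtm2 being 0.185 apart. The distance grows with a gene's own spread, so the larger distances of the LRRTMs do not show that their profiles had another shape. That spread was 0.079 to 0.149 for the first 5 genes and 0.167 and 0.225 for Lrrtm1 and Lrrtm2. Among 7626 other genes whose mean level reached 5 FPKM, the profiles nearest to Nrxn2 were Pabpc1l2b-ps and Slc1a4 (0.019 and 0.020), to Nrxn3 Ankrd34b (0.010), to Nlgn2 Vat1 (0.021), to Nlgn3 Med14 (0.018), to Lrrtm1 Timm50 (0.038) and to Lrrtm2 Adcy1 (0.029). Among 7627 genes, Scaper was nearest to Nlgn1 (0.019).

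Other genes of synaptic adhesion leaned the same way. In 5 lists of partners and related adhesion systems, 85 of 104 genes had a negative log2 difference, with a median of -0.15. edgeR called 0 of 104, where it called 0.00959% of all genes. Over all tested genes 51% were negative. At an unadjusted p of 0.05, 36 were lower and 5 higher, where 9.11% of all genes were lower and 8.11% higher. DESeq2 called 22 lower, where it called 4.91% of all genes lower, and 1 higher. Among the extracellular partners of neurexins and LRRTMs, 19 of 23 were negative (median -0.19). Clstn1 and Clstn3, calsyntenins, stood at 183 ± 7.36 against 158 ± 8.81 FPKM and at 98.7 ± 4.68 against 88.3 ± 4.84 FPKM, Igsf21, an adhesion protein of inhibitory synapses, at 9.85 ± 0.371 against 7.50 ± 0.978 FPKM, and Cbln4, a secreted cerebellin, at 16.0 ± 1.07 against 12.4 ± 1.95 FPKM (n = 3, SD; adjusted p by edgeR = 0.134, 0.179, 0.147 and 0.165). The other LRRTM genes, Lrrtm3 and Lrrtm4, differed by -0.00093 and -0.017 in log2 (edgeR adjusted p = 0.997 and 0.964).

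Scaffolds and partners of neuroligins were negative in 15 of 17 cases (median -0.15). Dlg2, a scaffold of the family of PSD-95, stood at 14.3 ± 0.56 against 11.5 ± 0.753 FPKM, Shank1, a scaffold of the postsynaptic density, at 34.4 ± 0.504 against 28.1 ± 2.75 FPKM, and Dlgap3 at 18.1 ± 3.05 against 13.4 ± 1.55 FPKM (n = 3, SD; adjusted p by edgeR = 0.091, 0.122 and 0.157). Gphn, which encodes gephyrin, was on the other side at 0.12 (edgeR adjusted p = 0.372).

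On the inner side of neurexins, 9 of 12 cytoplasmic partners were negative (median -0.16). Cask, a kinase-like scaffold that binds the neurexin tail, stood at 9.11 ± 0.386 against 7.57 ± 0.155 FPKM, Apba1, the adaptor Mint1, at 38.7 ± 1.66 against 30.3 ± 4.0 FPKM, and Ppfia3, a liprin of the active zone, at 16.3 ± 0.385 against 13.6 ± 0.995 FPKM (n = 3, SD; adjusted p by edgeR = 0.0793, 0.134 and 0.104). Sdcbp, or syntenin, went the other way, at 12.9 ± 0.92 against 16.0 ± 0.974 FPKM (edgeR adjusted p = 0.126).

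Shedding proteases and splicing factors had no common direction, with 4 of 9 negative and a median of 0.065. Khdrbs1, the splicing factor SAM68 that acts on neurexin transcripts, stood at 20.4 ± 0.318 against 17.7 ± 1.04 FPKM (edgeR adjusted p = 0.103). Of the proteases, Adam10 stood at 14.3 ± 0.884 against 14.4 ± 0.388 FPKM, Adam17 at 2.27 ± 0.34 against 2.99 ± 0.133 FPKM and Mmp2 at 0.841 ± 0.167 against 1.25 ± 0.15 FPKM (n = 3, SD; adjusted p by edgeR = 0.846, 0.19 and 0.288).

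In the widest list, other adhesion proteins that span the cleft, 38 of 43 genes were negative (median -0.18). Tenm1, a teneurin, stood at 5.08 ± 0.492 against 3.29 ± 0.492 FPKM, Ephb1, an ephrin receptor, at 5.43 ± 0.425 against 4.0 ± 0.171 FPKM, and Cadm3, a SynCAM, at 58.0 ± 0.356 against 48.0 ± 2.12 FPKM (n = 3, SD; adjusted p by edgeR = 0.0779, 0.0705 and 0.0793). Cadm4, the most abundant gene of the list, stood at 78.0 ± 4.83 against 79.2 ± 6.51 FPKM (edgeR adjusted p = 0.934).

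**Figure D5:**
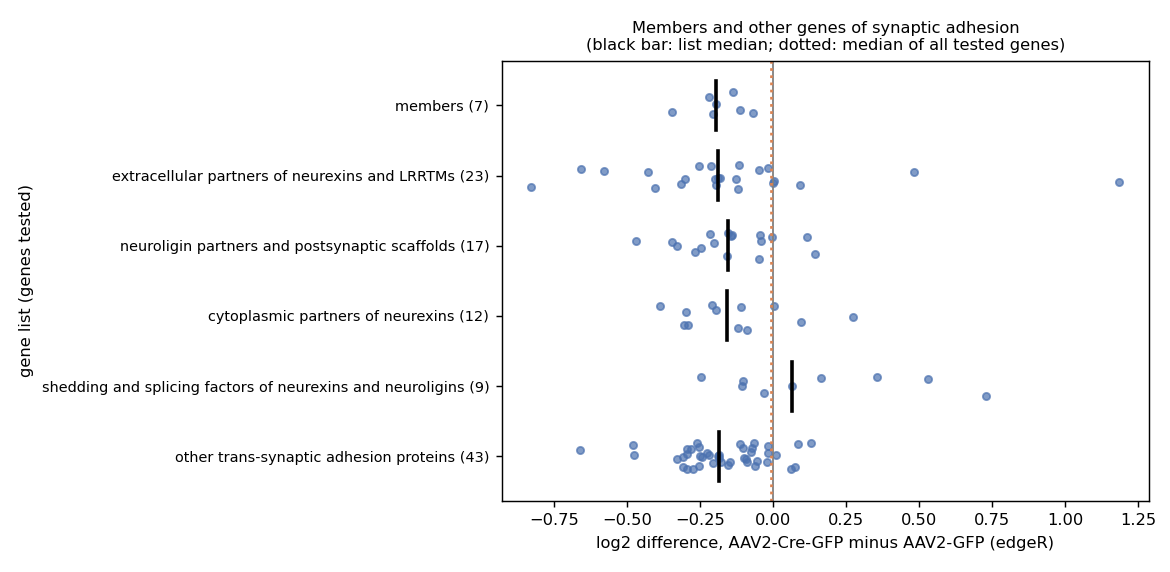
Log2 difference of each tested gene (horizontal axis, Cre-labelled minus GFP-labelled, edgeR), 1 point per gene, for the 7 members and 5 lists of related genes, with list medians as black bars. The medians lie between -0.19 and -0.15 except for shedding and splicing factors at 0.065; the dotted line marks all tested genes.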

How the data were processed

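Poly(A) RNA was prepared as dUTP-stranded libraries with molecular identifiers and sequenced as read pairs, per the labels' protocols. The submitters' processing notes name cutadapt, HISAT2, StringTie and build mm9, without versions or roles, and the use of identifiers and strand is not given in the sources used here. Start and end matched GRCm38 (GENCODE M21) for 91.4% of 35024 shared identifiers, so coordinates are given as GRCm38. The authors deposited whole-number counts per gene and library. The FPKM values the authors deposited equal, for the 7 members, the count over the M21 exon length and a total 1.15 to 1.17 times that of the table.

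The members, lists, tests and alternatives were chosen with earlier results of these data known. Counts were tested with edgeR 4.0.16 (R 4.3.3): quasi-likelihood F test, TMM, filterByExpr at a minimum count of 10, two-sided, no covariates, Benjamini-Hochberg over all 20865 tested genes, threshold 0.05. SE come from the F statistic. Means ± SD are in FPKM, and ratios were compared by exact permutation in scipy 1.17.1. Named genes were all members and Ruvbl2, the 3 smallest p and the most abundant further gene of each list, genes overlapping a member and the nearest profiles; Lrrtm3, Lrrtm4, Gphn, CT010467 and the kidney and testis genes were added after their values were seen. Alternatives were DESeq2 1.42.0, RLE factors, no filter, a robust fit, a replicate block, left-out libraries, and limma 3.58.1 on log2(FPKM + 0.5) for genes averaging 1 FPKM or more, whose fold changes are on the log2(FPKM + 0.5) scale, with pseudocounts of 0.1 and 1 and no filter. The fits were tested on simulated data. No 2 libraries agreed within sampling noise (chi-square per gene at least 11.4). Counts per member ran from 1824 to 26445, so the spread between libraries sets the precision; intervals are 95%. Some genes of these families and lists are not reported here.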

Additional observations from a re-analysis of the deposited data

How the results depend on the processing

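Of the 7 members, 6 kept a negative log2 difference under all 16 alternatives, and Lrrtm1 did so under 14. Its difference reversed to 0.0084 without GFP-labelled library 2 and to 0.0090 without the first Cre-labelled library; Ruvbl2 reversed to -0.029 without GFP-labelled library 2; these are changes of the samples used and the cause was not tested. With 1 library left out the log2 difference ran from -0.27 to -0.17 for Nrxn2, -0.17 to -0.057 for Nrxn3, -0.21 to -0.16 for Nlgn1, -0.27 to -0.13 for Nlgn2, -0.17 to -0.11 for Nlgn3, -0.19 to 0.0090 for Lrrtm1, -0.41 to -0.24 for Lrrtm2 and -0.029 to 0.18 for Ruvbl2, and no member passed. The members past the threshold were 1 with DESeq2 (Nrxn2, -0.22) and 3 without the libraries with transcripts of other organs (Nrxn2 -0.26, Nlgn2 -0.40, Lrrtm2 -0.45). The count of all genes past the threshold was 2, and it was 1322 with DESeq2, 1059 without those libraries, 22 in the robust fit, 15 by limma with a pseudocount of 0.1, 9 with RLE factors, 1 without a filter in edgeR and in limma, and 1 to 296 with 1 library left out, the highest without Cre-labelled library 1. Of the pathway genes, 23 were called by DESeq2, 25 without the 3 libraries and 0 to 1 with 1 library left out. The list medians kept their sign under all alternatives. With 1 library left out they ran from -0.23 to -0.088 (extracellular partners; highest without Cre-labelled library 3), -0.16 to -0.12 (neuroligin partners), -0.20 to -0.11 (cytoplasmic partners), 0.028 to 0.12 (shedding and splicing) and -0.20 to -0.12 (other adhesion). The cytoplasmic median was -0.25 without the 3 libraries that hold transcripts of other organs, a fit with 1 Cre-labelled library. In limma with a pseudocount of 1 the medians were -0.10 (neuroligin partners), -0.12 (cytoplasmic partners) and -0.099 (other adhesion), and for the last -0.11 with 0.5 and -0.10 without a filter. The difference of each family ratio moved by less than the spread between libraries with any 1 library left out, that of Nlgn1 to Nlgn2 from -0.056 to 0.078. Same-numbered libraries did not deviate together (correlations -0.0435, 0.0121 and -0.0216), so no pairing by the titles' numbers was seen. With 3 libraries per group these values cannot exclude a pairing. With the replicate block 3 genes and no member passed, and Nrxn2 was at -0.22. The causes of these changes were not tested.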
